A study of Mus musculus with 9 samples.

Results

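The genes described here encode 10 core proteins of focal adhesions, the plaques that tie integrin receptors at the cell surface to actin filaments: Vcl (vinculin), Tln1 (talin), Fermt2 (kindlin-2), Pxn (paxillin), Tns1 (tensin), Zyx (zyxin), Lpp (a zyxin relative) and the Ena/VASP proteins Vasp, Enah and Evl. They were chosen by name. Of 45037 probe sets for genes on the array, all 35 that the platform annotation assigns to 1 of these symbols and to no other were taken. Of these 35, 29 passed the filter on dim signals that left 27034 of all probe sets for testing, and each of the 10 genes kept at least 1.

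The RNA came from NIH 3T3 cells, an established mouse fibroblast line, and was measured on 9 Affymetrix arrays. All cultures were starved of serum, and all, controls included, were given cycloheximide, an inhibitor of translation, at 3 µg/ml for 2 h. Protein synthesis was not measured in these files. The control group had no other drug. The cytochalasin D group had 2 µM of that drug for 90 min, and the double-drug group had latrunculin B at 5 µM besides cytochalasin D at 2 µM, also for 90 min. Each group has 3 arrays, numbered 1, 3 and 7, which the design text calls independent biological replicates. Titles of the double-drug group mention latrunculin B only, while its agent label and the design text give both drugs, which were followed here. There is no group with latrunculin B alone.

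Talin and kindlin bind integrin tails and switch integrins on. Vinculin binds talin and actin, paxillin and tensin are scaffolds, and zyxin and Lpp carry LIM domains and proline-rich sites that dock Ena/VASP proteins, which speed the growth of actin filaments. Cytochalasin D caps filaments and displaces the coactivator MRTF from monomeric actin, whereas latrunculin B binds the monomer and leaves MRTF attached to it. Freed MRTF acts with SRF, a transcription factor that binds a short element called the CArG box, and vinculin is a textbook SRF target.

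On the deposited linear scale the median probe set of an array read 7.55 to 7.82, and 0 of 36 pairs of arrays were identical. The 3 arrays numbered 1 stood apart: their deviations from their group means correlated between -0.722 and 0.0526 with those of differently numbered arrays of other groups. Of 12 fibroblast markers 11 lay above the 40th percentile of every array, and their summed intensity was 94499.8 to 102876 in controls, 92776 to 99659 with cytochalasin D and 95125 to 97209.6 with both drugs. All 5 endothelial markers, 4 of 6 epithelial and 3 of 8 macrophage and leukocyte markers lay at or below that percentile on all arrays. The summed leukocyte markers, led by Cd14, were 372 to 445 in controls, 284 to 385.5 with cytochalasin D and 334 to 391 with both drugs. The summed epithelial markers were 39.8 to 44.6 in controls, 39.7 to 39.9 with cytochalasin D and 39.7 to 40.2 with both drugs. Their part in the results was not tested. In RNA of whole cultures, fewer cells with a transcript and less of it per cell cannot be told apart.

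The first comparison asks which of these transcripts cytochalasin D changed in the presence of cycloheximide. Vinculin, kindlin-2 and VASP rose about 1.92-fold to 2.52-fold, each on 1 probe set, and a dim probe set of Lpp was also called higher, while no probe set of the 10 genes was called lower. A probe set was called when its adjusted p was under 0.05 in limma, with Benjamini-Hochberg adjustment over all 27034 probe sets, and 4 of the 29 were called, which is 13.8%. The Lpp probe set entered the test through its cytochalasin D values alone and so had to differ. Without it 3 of 28 were called, which is 10.7%. Of all probe sets tested 1.56% were called in either direction and 1.14% higher. The changes of 24 of the 29 were positive, with a median of 0.23 on the log2(intensity + 16) scale, where the median of all probe sets tested was -0.00098. The 3 cytochalasin D values lay above all 3 control values in 11 of the 29, against 5.05% of all probe sets tested. Without the Lpp probe set this was so in 10 of 28, the median change was 0.22, and 23 of the 28 changes were positive. Of all probe sets tested, 11.5% did not overlap in either direction, and 0.422% were called lower. An unadjusted p under 0.05 was found for 12 of the 29, all of them higher, where 4.54% of all probe sets tested were higher at that level. Without the Lpp probe set it was found for 11 of 28. Earlier results of these data were known when the genes were chosen, so the counts describe them and are no independent evidence.

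Vcl encodes vinculin, which binds talin and actin. Its probe set 1416156_at read 2787, 3049.8 and 2548 in controls (numbers 1, 3 and 7), 5482, 7261 and 8811 with cytochalasin D, and 3755, 4644 and 4826 with both drugs. The 3 groups did not overlap, with the controls lowest, the double-drug arrays between and the cytochalasin D arrays highest. Vcl rose with cytochalasin D by 1.33 on the log2 scale (SE 0.18, adjusted p = 0.0196). The second Vcl probe set, 1416157_at, read 428, 211 and 122 in controls, 1160.2, 1253 and 841 with cytochalasin D and 618, 389 and 331 with both drugs. Again all cytochalasin D arrays were above all others, but the control arrays were far apart. Its change of 2.18 (SE 0.44, adjusted p = 0.0852) did not pass the test, so 1 of 2 probe sets carries the call for this gene. It was called without control 1 (adjusted p = 0.0315), with each array centred on its median (0.0466) and with the filter at the 60th percentile (0.0277). Of the 9 fits without 1 array, only that without control 1 called it, and the adjusted p reached 0.279.

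Fermt2, which encodes the integrin activator kindlin-2, had the smallest adjusted p of the 10 genes. Its probe set 1434181_at read 763, 907 and 769 in controls, 1373, 1797 and 1569.8 with cytochalasin D and 1176, 1346 and 1219.8 with both drugs. Every array given a drug was above every control array, and the cytochalasin D arrays were above the double-drug arrays. The rise with cytochalasin D was 0.94 (SE 0.11, adjusted p = 0.0115). The other bright probe set of Fermt2, 1434180_at, read 1308, 1604 and 1441 in controls, 2035, 2697 and 2713 with cytochalasin D and 1769, 2315 and 2335 with both drugs. Here too the controls were lowest, and the drug groups overlapped. Its change of 0.76 (SE 0.16, adjusted p = 0.0898) did not pass the test, but did with the filter at the 60th percentile (adjusted p = 0.0395). Of the 9 fits without 1 array 1 called it, and the adjusted p reached 0.291.

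The start regions of these 2 genes are shown because they were the members with a CArG box there. The search used 300-base windows from RefSeq on build GRCm38.p6, 250 bases before the annotated start and 50 after, for the 10-letter CArG consensus, which reads the same on both strands. Windows were found for 9 of the 10 genes, all but Pxn, and the box was in those of Vcl and Fermt2. It was in 1.63% of all 32851 windows and in 1.59% of the 10218 tested genes with a window. Of the 172 genes with a window that were called higher with cytochalasin D, 15.7% had one, and of the 74 called lower, 1.35%. The stretches below run 5′ to 3′ on the gene's strand up to the last base before the start, with the CArG boxes in capitals. That of Vcl lies at chr14:20929148-20929397 on the plus strand and that of Fermt2 at chr14:45530066-45530315 on the minus strand. The stretch of Srf itself, at chr17:46556163-46556262 on the minus strand, is given for comparison as a gene with 2 boxes.
Vcl: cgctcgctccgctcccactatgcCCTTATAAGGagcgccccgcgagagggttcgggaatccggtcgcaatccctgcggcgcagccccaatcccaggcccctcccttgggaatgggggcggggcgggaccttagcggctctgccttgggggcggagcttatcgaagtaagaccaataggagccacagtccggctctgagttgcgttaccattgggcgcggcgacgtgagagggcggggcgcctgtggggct
Fermt2: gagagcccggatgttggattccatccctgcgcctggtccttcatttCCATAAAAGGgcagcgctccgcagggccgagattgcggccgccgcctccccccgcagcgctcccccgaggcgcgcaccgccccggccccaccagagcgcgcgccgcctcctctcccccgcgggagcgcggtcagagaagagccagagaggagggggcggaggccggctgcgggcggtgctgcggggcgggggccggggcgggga
Srf: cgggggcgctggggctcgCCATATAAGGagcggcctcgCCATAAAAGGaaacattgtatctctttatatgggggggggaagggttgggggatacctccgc
The first base of the box lay at -227 in Vcl, at -204 in Fermt2 and at -82 and -62 in Srf, counted from the start. The box of Vcl, CCTTATAAGG, is at chr14:20929171-20929180, and that of Fermt2, CCATAAAAGG, at chr14:45530260-45530269, spelled as the box nearer the start in Srf. These are matches of letters, not measured binding. In the windows of Zyx, Tln1, Lpp, Vasp, Enah, Evl and Tns1 these letters were not found, which says nothing of sites elsewhere. Srf rose with cytochalasin D by 2.87 (SE 0.21, adjusted p = 0.00192).

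Among the Ena/VASP genes Vasp alone was called. Vasp, with 1 probe set, read 513, 393 and 283 in controls, 848, 1163 and 949.9 with cytochalasin D and 746, 672 and 672 with both drugs. The groups did not overlap, and the order was that of Vcl. Vasp rose with cytochalasin D by 1.31 (SE 0.21, adjusted p = 0.0382). Enah, the mammalian Ena protein (Mena), read 435, 717 and 606 in controls and 455, 616 and 756 with cytochalasin D on its brightest probe set, 1424800_at, and the groups overlapped. Its change was 0.05, with a 95% interval from -0.61 to 0.72, which leaves room for a change in either direction. Evl, the third member of the family, read 239.9, 276 and 243 in controls and 240.5, 235 and 223 with cytochalasin D on 1434920_a_at, also overlapping, with a change of -0.11 (interval -0.34 to 0.12). The interval of Vasp, 0.81 to 1.81, lay above those of these 2 probe sets, though the difference between genes was not tested. A dimmer Enah probe set, 1421624_a_at, read 26.6, 29.3 and 29.3 in controls and 39.2, 29.6 and 39.6 with cytochalasin D. Its change of 0.23 (interval 0.04 to 0.41, adjusted p = 0.357) did not pass the test, but it was called without cytochalasin D 3 (0.32, adjusted p = 0.0282). That was 1 of 9 fits without 1 array, and the adjusted p reached 0.605 in the others. The dimmer Evl probe set 1450106_a_at differed in direction from the brighter one, with a change of 0.20 (interval -0.11 to 0.52, adjusted p = 0.762). It read 95.8, 86.6 and 77.8 in controls and 106.3, 105 and 95.2 with cytochalasin D, which overlap.

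**Figure D1:**
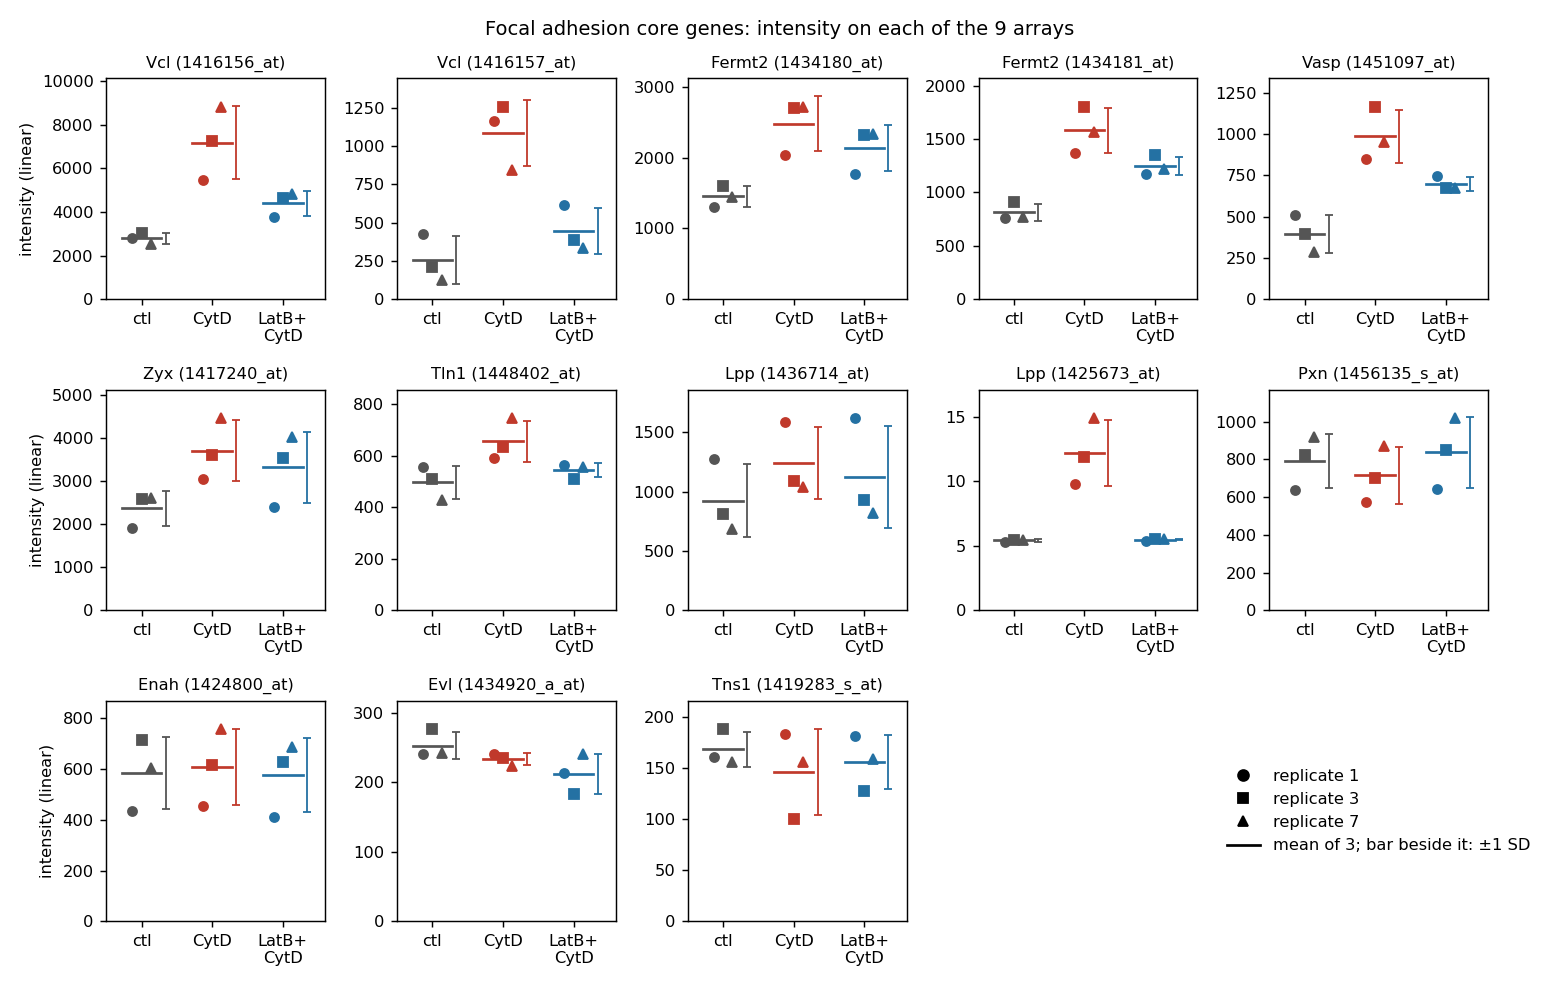
Deposited linear intensity (y axis, from 0, its own range in each panel) on each of the 9 arrays, by group (x axis: ctl, control; CytD, cytochalasin D; LatB+CytD, both drugs), for the reference probe set of each gene and for further probe sets of Vcl, Fermt2 and Lpp; lines are means of 3 arrays and bars ±1 SD. The groups are apart from each other for Vcl 1416156_at, Fermt2 1434181_at and Vasp and overlap for Pxn, Enah, Evl and Tns1.

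Zyx and Lpp, the LIM proteins that dock Ena/VASP, gave a mixed result. Zyx 1417240_at read 1909, 2587 and 2613 in controls, 3067, 3624 and 4468 with cytochalasin D and 2398, 3549 and 4026 with both drugs. The cytochalasin D arrays were above all controls, but the spread within each group was wide, with number 1 lowest in all 3 groups. The change of 0.64 (SE 0.24, adjusted p = 0.402) did not pass the test, nor did that of the dim probe set 1438552_x_at, 0.32 (adjusted p = 0.524). For Lpp 7 probe sets were tested. The brightest, 1436714_at, read 1273, 808 and 687 in controls, 1586, 1088 and 1040.2 with cytochalasin D and 1617, 933 and 820.0 with both drugs, with number 1 highest in every group. Its change of 0.44 (SE 0.34, adjusted p = 0.836) did not pass the test. Each cytochalasin D array was nevertheless above the control array of its own number. In an alternative limma fit with the number as a block, the SE was 0.073 and the adjusted p 0.0494. That fit also called Zyx 1417240_at (SE 0.080, adjusted p = 0.0239) and Zyx 1438552_x_at (SE 0.047, adjusted p = 0.0371). The arrays numbered 3 of these 2 groups hardly varied together, however (r = 0.0762).

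The Lpp call came from 1425673_at, a dim probe set. It read 5.3, 5.48 and 5.47 in controls, 9.77, 11.9 and 14.9 with cytochalasin D and 5.41, 5.5 and 5.5 with both drugs. The control and double-drug values lay under the 40th percentile of their arrays, 6.15 to 6.34, so the probe set passed the filter through the cytochalasin D arrays alone and had to differ to be tested at all. Its change was 0.39 (SE 0.06, adjusted p = 0.0285), and it was not called without the filter (adjusted p = 0.058) or with each array centred on its median (0.0592). The other 6 tested Lpp probe sets had changes between 0.06 and 0.44, none of them called.

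Talin, paxillin and tensin had no call. Tln1 1448402_at read 555, 508 and 429 in controls, 589.6, 632 and 745 with cytochalasin D and 563, 511 and 557 with both drugs. The cytochalasin D values were the highest of the 9, by a small margin. Its change was 0.39 (SE 0.12, interval 0.11 to 0.66, adjusted p = 0.26), and the dim Tln1 probe sets 1436042_at and 1457782_at had 0.71 (adjusted p = 0.304) and 0.66 (adjusted p = 0.481). In all 3 Tln1 probe sets each cytochalasin D value exceeded each control value. Pxn 1456135_s_at read 638, 822 and 918 in controls and 573, 701 and 870.1 with cytochalasin D, a change of -0.15 (interval -0.69 to 0.39). Pxn 1426085_a_at had 0.24 (interval 0.01 to 0.46, adjusted p = 0.45). Tns1, on 1419283_s_at, read 161, 188 and 156 in controls and 184, 100.2 and 156 with cytochalasin D, a change of -0.21 (interval -0.72 to 0.29). For Pxn and Tns1 the groups overlapped in every tested probe set.

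The calls depended on which arrays were in the fit. Without 1 array at a time, Fermt2 1434181_at kept its call in 8 of 9 fits, with adjusted p between 0.0137 and 0.057, and lost it without control 7. Vcl 1416156_at kept it in 4 of 9 and lost it without control 1, 3 or 7 (adjusted p = 0.0605, 0.0675 and 0.0847), cytochalasin D 3 (0.0922) or double-drug 3 (0.053). Vasp kept it without control 1 alone (0.0211) and otherwise had adjusted p between 0.0575 and 0.134. Lpp 1425673_at kept it in 0 of the 6 fits in which it could be tested (0.0674 to 0.112). The number of called members was 0 without control 7 and 1 without control 3 or without double-drug 3. It was 2 without cytochalasin D 3 or 7 or double-drug 1 or 7, and 3 without control 1 or cytochalasin D 1. Without all 3 arrays numbered 1, the changes were 1.52 for Vcl, 0.99 for Fermt2 1434181_at and 1.61 for Vasp, but their adjusted p were 0.0524, 0.0764 and 0.0756, and Fermt2 1434180_at was called (0.82, adjusted p = 0.0395).

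**Figure D2:**
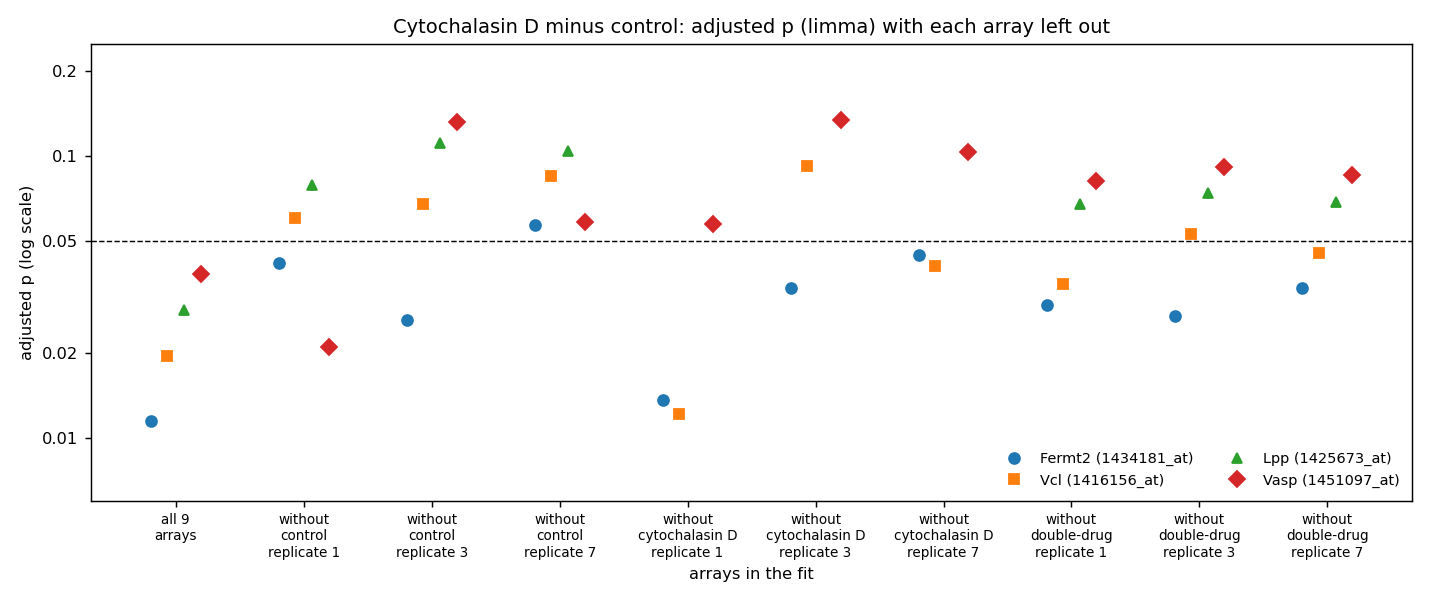
Adjusted p from limma (y axis, log scale) of the 4 probe sets called in cytochalasin D against control, with all 9 arrays and with each array left out (x axis); the dashed line is 0.05. Fermt2 is under the line in 8 of 9 fits, Vcl in 4 and Vasp in 1; Lpp was not tested without a cytochalasin D array.

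The second comparison asks how these transcripts differed from the controls when latrunculin B was present as well. None of the 29 probe sets was called in limma (7 had an unadjusted p under 0.05, 6 of them higher and 1, of Evl, lower, where 2.67% of all probe sets tested were higher at that level), and the smallest adjusted p was 0.186, for Fermt2 1434181_at. Of all probe sets tested 0.111% were called, 0.0999% higher and 0.0111% lower. The double-drug arrays lay above all controls in 4 of the 29, both bright Fermt2 probe sets, Vcl 1416156_at and Vasp, against 4.09% of all probe sets; 8.07% of these did not overlap in either direction. The changes were 0.61 for Fermt2 1434181_at (interval 0.34 to 0.88), 0.55 for Fermt2 1434180_at (0.17 to 0.92), 0.65 for Vcl 1416156_at (0.21 to 1.09) and 0.83 for Vasp (0.32 to 1.33). Same-numbered arrays of these 2 groups varied together, and with the number as a block Fermt2 1434181_at was called (adjusted p = 0.0269) and no other member. Zyx had 0.47 on 1417240_at (interval -0.10 to 1.03) and 0.43 on 1438552_x_at (0.09 to 0.76). Lpp 1425673_at, whose double-drug values were close to those of the controls, had 0.0035.

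The third comparison sets the cytochalasin D group against the double-drug group and so asks how these transcripts differed between cultures without and with latrunculin B. Again 0 of 29 were called in limma, 5 having an unadjusted p under 0.05, all higher with cytochalasin D alone. Of all probe sets 0.259% were called, 0.248% higher and 0.0111% lower, and 2.47% were higher at that unadjusted level. All 3 cytochalasin D values lay above all double-drug values in 8 of the 29, against 2.92% of all probe sets tested (6.25% in either direction): both Vcl probe sets, Vasp, Fermt2 1434181_at, Lpp 1425673_at, Enah 1421624_a_at and 2 of Tln1. Vcl was higher by 0.68 without latrunculin B on 1416156_at (interval 0.25 to 1.12, adjusted p = 0.555) and by 1.28 on 1416157_at (0.23 to 2.34, adjusted p = 0.922). Fermt2 1434181_at differed by 0.33 (0.06 to 0.60, adjusted p = 0.917), Vasp by 0.48 (-0.02 to 0.98) and Zyx 1417240_at by 0.18 (-0.39 to 0.74). Same-numbered arrays of these 2 groups varied together (r = 0.726, 0.411 and 0.756 for numbers 1, 3 and 7), which these unpaired values ignore. In the limma fit with the number as a block, Fermt2 1434181_at had an SE of 0.045 in place of 0.114 and an adjusted p of 0.0883. No member was called with the block. The filter fixed the direction of Lpp 1425673_at here too, since its cytochalasin D arrays alone let it into the test, so its difference of 0.39 is a description. Without it 7 of 28 did not overlap and 4 had an unadjusted p under 0.05. The comparisons of each drug group with control share the control arrays, so for Vcl 1416156_at the values 1.33 and 0.65, for Vasp 1.31 and 0.83, and for Fermt2 1434181_at 0.94 and 0.61 stand side by side as a description.

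**Figure D3:**
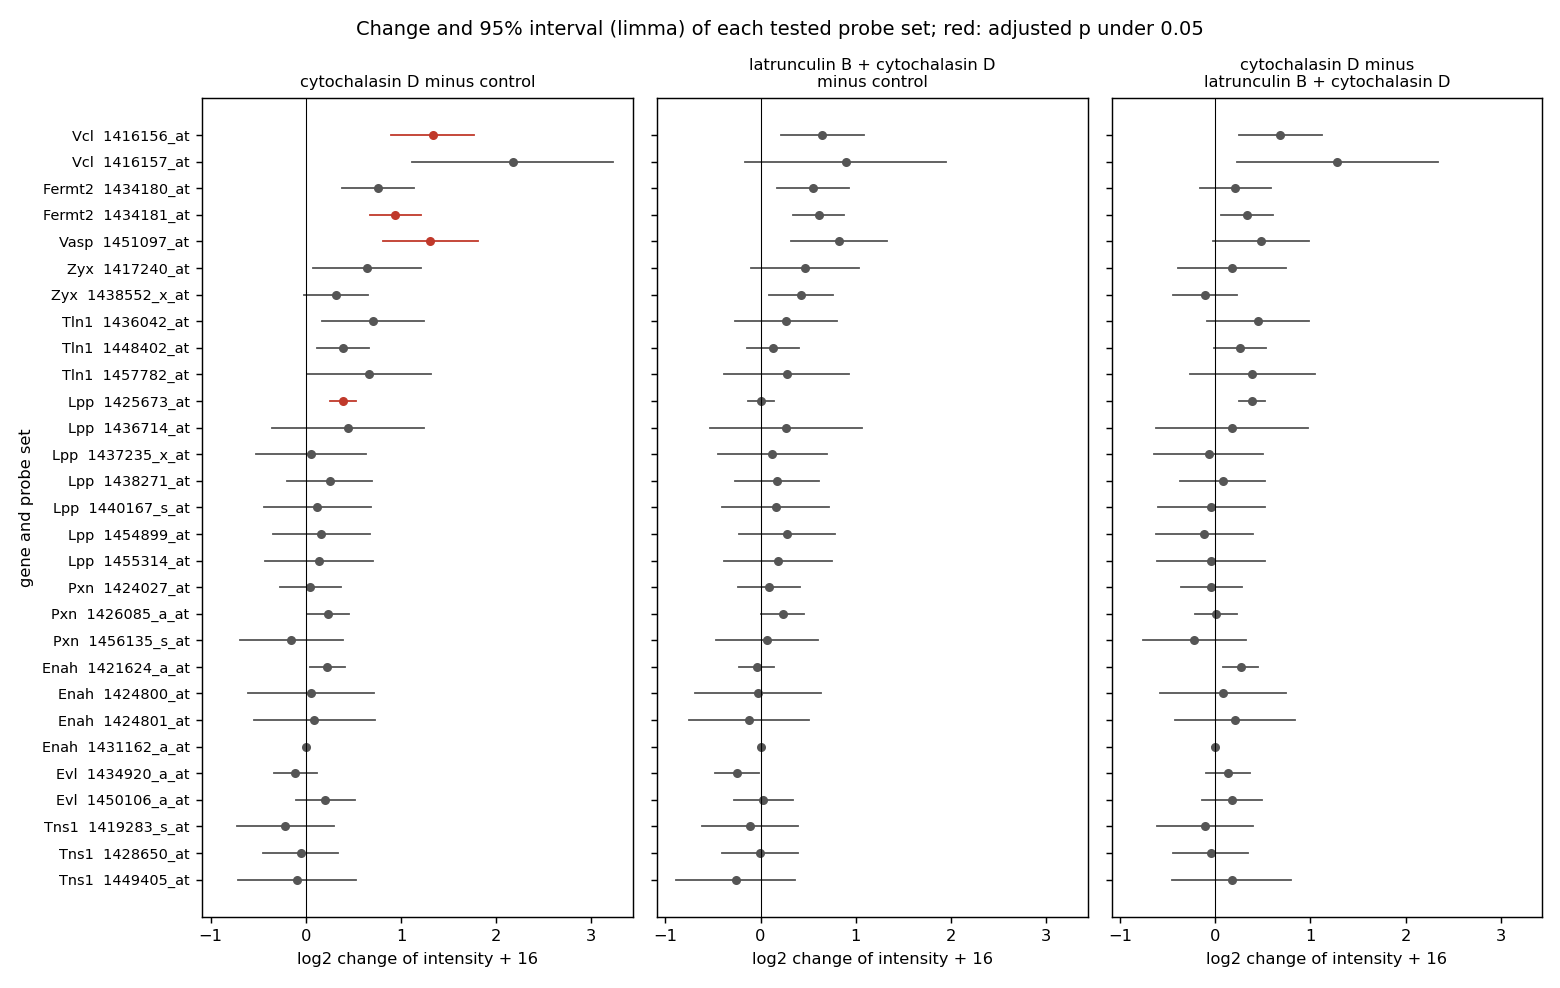
Log2 change of intensity + 16 (x axis) with its 95% interval from limma for each of the 29 tested probe sets (y axis) in the 3 comparisons; red marks an adjusted p under 0.05. The 4 red probe sets, of Vcl, Fermt2, Vasp and Lpp, are all in the first panel.

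Other genes of the adhesion machinery were taken from lists, with 1 reference probe set a gene, the tested one with the highest mean. By this measure 2 of the 10 core genes were called higher with cytochalasin D, Vcl and Vasp, with a median change of 0.41 over the 10, where 1.37% of 12660 genes were called higher and their median was -0.0044. In the list of paralogs of the core proteins, which also holds the LIM protein Tes, 2 of 12 tested were called higher and 0 lower, with a median of -0.020. Tgfb1i1, the paxillin relative Hic-5, read 359, 389 and 391 in controls, 916, 1249.5 and 1096 with cytochalasin D and 606, 709.6 and 761 with both drugs. Its groups did not overlap, and its rise of 1.47 (SE 0.13, adjusted p = 0.00325) held in all 9 fits without 1 array, while Pxn had no call. Tes, testin, a LIM protein that binds zyxin, rose by 0.41 (adjusted p = 0.0438), on 1 of 2 probe sets, and kept its call in 1 of the 9 fits (adjusted p up to 0.163). The zyxin relatives Trip6 (0.15) and Ajuba (-0.52, adjusted p = 0.0738) did not pass the test.

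Among partners of vinculin and Ena/VASP, with a median change of 0.20, 1 of 9 was called higher. This was Palld, the stress fibre protein palladin, which binds VASP and read 616, 648 and 452 in controls, 3378, 3957 and 5019 with cytochalasin D and 1339, 1785 and 1895 with both drugs. Its rise of 2.81 (adjusted p = 0.00199) was on 2 of 3 probe sets. In the complex of ILK, PINCH and parvin, which sits beside kindlin at integrins, 1 of 6 was called higher: Lims2, which encodes PINCH-2. The median change of the 6 was 0.31, and the uncalled changes were positive too, from 0.09 to 0.45. Lims2 read 11.4, 16.8 and 12.4 in controls, 45.8, 69.2 and 68.4 with cytochalasin D and 15.1, 17.5 and 16.8 with both drugs, so the double-drug arrays overlapped the controls. It was higher by 1.38 with cytochalasin D than in controls (adjusted p = 0.00497) and by 1.23 than with both drugs (adjusted p = 0.0336), the latter in 1 of 9 fits without 1 array (adjusted p up to 0.174). It was the 1 gene of these adhesion lists called in the third comparison, where 0.316% of genes were called higher. In the FAK and Src adaptor module 0 of 12 were called in limma; Bcar1, the scaffold p130Cas, and Src had the smallest p, with changes of 0.42 (adjusted p = 0.0571) and 0.31 (adjusted p = 0.402). With both drugs against control no gene of these lists was called, where 0.134% of genes were called higher, but with the array number as a block Tgfb1i1 was (0.83, adjusted p = 0.0384; 0.101 without the block).

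**Figure D4:**
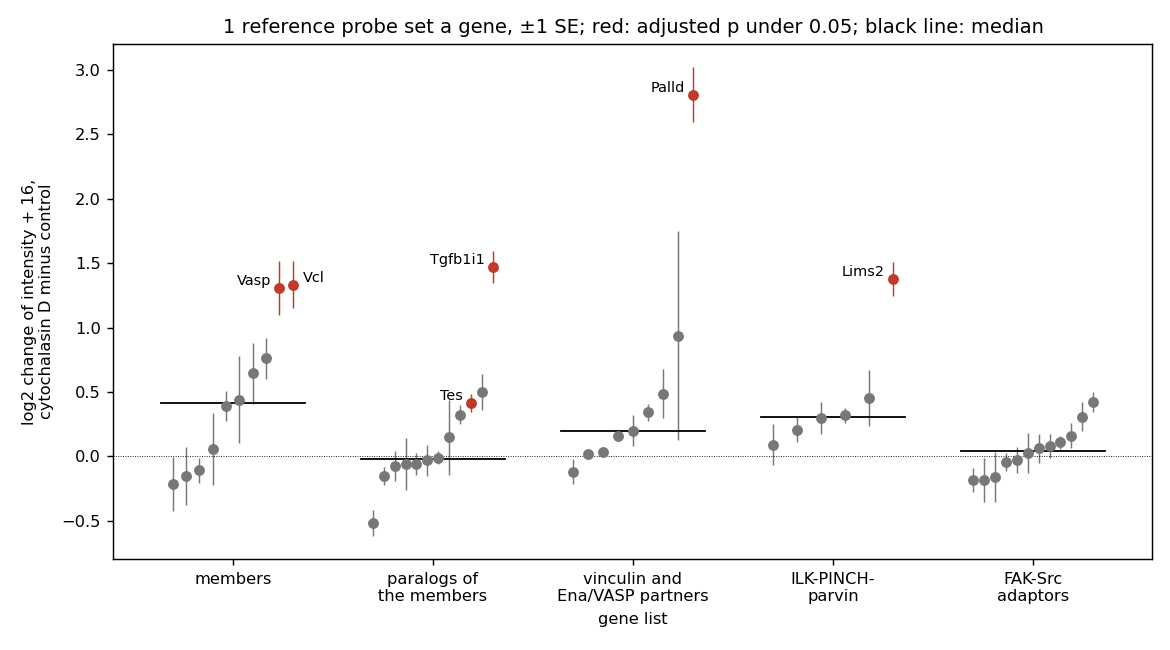
Log2 change of intensity + 16 with cytochalasin D against control (y axis), 1 reference probe set a gene with ±1 SE, for the core genes and 4 lists of related adhesion genes (x axis); red marks an adjusted p under 0.05 and black lines the list medians. Vcl, Vasp, Tgfb1i1, Tes, Palld and Lims2 are the red points.

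The transcripts most like Vcl and Vasp over the 9 arrays were found by Pearson's r of log2 values among 12659 other genes. This is a description across arrays that share groups and numbers, with 1 reference probe set a gene. The reference probe sets of Fermt2 (1434180_at) and Lpp (1436714_at) were not called, so no such search was made for these genes. The transcripts most like Vcl were Msrb3 (0.993), Map2k4 (0.991) and Filip1l (0.987), and for Vasp they were Tollip (0.989), Tagln (0.964) and Wdr1 (0.959). Among the core genes themselves, Vcl had an r of 0.94 with Fermt2, 0.888 with Vasp, 0.858 with Tln1 and 0.835 with Zyx. With Lpp it had 0.237, with Enah 0.342, with Pxn -0.0040, with Evl -0.291 and with Tns1 -0.442.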

How the data were processed

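The authors deposited 1 normalized intensity for each probe set and array on a linear scale. MAS5 and GCRMA are both named in the submitters' processing notes, which do not tell which of them gave the deposited values. Symbols came from the platform annotation, updated through gene identifiers with RefSeq names. Control probe sets were left out. Values were changed to log2(intensity + 16), which shrinks changes of dim probe sets, and only probe sets exceeding the array's 40th percentile on at least 3 of the 9 arrays were tested. limma 3.58.1 in R 4.3.3 (lmFit, eBayes) was fitted with 1 coefficient per group and all 9 arrays, without a block. The p-values are two-sided and were adjusted by Benjamini-Hochberg across 27034 probe sets. The fit was also run on simulated data in which all arrays varied independently, so that run cannot judge the shared variation of same-numbered arrays. Same-numbered arrays deviated together in both comparisons with the double-drug group (r from 0.411 to 0.834). In cytochalasin D against control numbers 1 and 7 gave 0.71 and 0.65, but number 3 gave 0.0762. The main fit ignored the number in all 3 comparisons, so its p-values and intervals are unpaired. A block on the number was an alternative only.

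All 29 tested probe sets of the core genes were analysed. Related genes were named where called or, in a list with no call, for the 2 smallest p, with Trip6, Ajuba and Rsu1, and those whose call a replicate block changed, named besides after their values were seen. The members and lists were chosen with earlier results of these data known. Probe sets ending in _s_at or _x_at can bind transcripts of other genes, and 3 arrays a group limit the precision of all values. Alternatives were another pseudocount, filter, scaling, variance prior, the replicate block, fewer arrays and each array left out.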

Additional observations from a re-analysis of the deposited data

How the results depend on the processing

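In cytochalasin D against control 4 core probe sets were called. The number was 2 with no filter on low values, 0 in a fit on only the 6 arrays of the 2 groups compared, 1 (not among the 4) without the 3 arrays numbered 1, an alternative added after seeing the data, and 0 to 3 with each array left out, of which at most 2 were among the 4. It was 5 with the filter at the 60th percentile and 4 with each array centred on its median, of which 3 were among the 4 in each case. With the replicate block 9 were called, the 4 among them, the others being Vcl 1416157_at (adjusted p = 0.0223), Zyx 1417240_at (0.0239), Zyx 1438552_x_at (0.0371), Fermt2 1434180_at (0.0074) and Lpp 1436714_at (0.0494); in that comparison the number was not shown to pair the arrays, although all 9 arrays correlated best with an array of their own number. Of the related genes, the block there also called Ilk (adjusted p = 0.00822), Rsu1 (0.0452), Actn1 (0.00756), Actn4 (0.00951), Fblim1 (0.0312) and Bcar1 (0.0498) and lost Tes (0.0527). So 3 of 6 genes of the ILK, PINCH and parvin list and 3 of 9 partners of vinculin and Ena/VASP were called. In the list of paralogs 2 of 12 were called, and in the FAK and Src list 1 of 12. With both drugs against control the block called 1 core probe set in place of 0, and of the related genes Tgfb1i1. In cytochalasin D against both drugs 1 was called in place of 0 with a pseudocount of 1 and with eBayes with trend and robust, each time Lpp 1425673_at, whose direction the filter fixed, and the block changed no call of a core or related gene. Over all probe sets tested the block gave 1044, 121 and 99 calls in the 3 comparisons in place of 423, 30 and 70, and the 6-array fits gave 159, 1 and 9. The cause was not tested.

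Of the changes of the 18 core probe sets that are reference probe sets or had an unadjusted p under 0.05, none that was called reversed. Uncalled ones crossed 0 with single arrays left out: with cytochalasin D against control Tns1 1419283_s_at (-0.38 to 0.0098) and Enah 1424800_at (-0.14 to 0.24). With both drugs against control they were Tns1 1419283_s_at (-0.21 to 0.014), Enah 1424800_at (-0.22 to 0.19), Lpp 1425673_at (-0.00041 to 0.0056), Lpp 1436714_at (-0.027 to 0.52) and Pxn 1456135_s_at (-0.083 to 0.24). In the third comparison they were Zyx 1417240_at (-0.040 to 0.33), Tns1 1419283_s_at (-0.27 to 0.12), Enah 1424800_at (-0.14 to 0.27), Lpp 1436714_at (-0.015 to 0.47) and Pxn 1426085_a_at (-0.030 to 0.071, and also -0.023 with quantile normalization, -0.012 with each array centred on its median and -0.039 without the arrays numbered 1). The median change of all probe sets tested stayed within 0.1 of 0 under each scaling. The deposited values carry no detection calls, so probe sets near the lowest intensities have no known background.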

Other observations

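Of the 35 probe sets of the core genes, 6 were too dim to be tested: 2 of Enah, 2 of Evl and 1 each of Fermt2 and Lpp. Among them Enah 1442223_at read 5.46, 5.48 and 5.47 in controls, 5.48, 7.14 and 9.64 with cytochalasin D, and 5.5, 5.4 and 5.96 with both drugs. Of the tested lists, the related adhesion genes with a CArG box in their start window were Trip6, with a change of 0.15 with cytochalasin D, and Rsu1, a partner of PINCH, with 0.32 (adjusted p = 0.0523), 2 of 31 tested genes with a window or 6.45%.

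The array number went with the level of several core genes in every group. Enah 1424800_at was lowest on number 1 in controls (435), with cytochalasin D (455) and with both drugs (413), and Pxn 1456135_s_at likewise (638, 573 and 645). Lpp 1436714_at was highest on number 1 in each group (1273, 1586 and 1617). These genes were picked after their values were seen.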
